A study of Rattus norvegicus with 38 samples.

Results

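DNA methylation was compared between the second and the tenth day after birth (P2 and P10) within 6 control rat pups, named C3, C4, C6, C7, C9 and C12, of the first of 2 cohorts. Their 12 samples were those that the labels give as control and cohort 1, and they are 12 of the 38 samples and 6 of the 19 pups of the series. The pups were Sprague Dawley rats reared in standard bedded cages from P2 to P9, each was swabbed inside both cheeks on P2 before cages were assigned, and each was swabbed again on P10. Pups of several litters had been pooled on P2 and given out at random to dams, 12 to a dam. Which pups shared a litter or a dam, and the sex of each pup, are not stated in the labels. They served as the reference for pups of the limited bedding and nesting (LBN) condition, who spent the same week in cages with sparse bedding and little nesting material. For comparison, the same change was read in the 4 controls of cohort 2 (C1, C5, C8 and C11), reared in the same way, and in the 5 LBN pups of cohort 1 (LBN2, LBN3, LBN4, LBN9 and LBN12).

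Methyl groups on cytosines followed by guanine (CpG) are added by DNA methyltransferases and removed by oxidation or by dilution at cell division, and each cell type carries its own pattern of them. Methylation in promoters and enhancers usually goes with low activity of the gene, while methylation within an active gene is common. A buccal swab collects epithelial cells of the cheek lining and white blood cells, so a level in a swab is an average over a mixture, and a shift in the share of a cell type cannot be told apart from a changed level per cell. Reduced representation bisulfite sequencing (RRBS) reads CpGs near the cut sites of a restriction enzyme, commonly MspI.

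The values were methylation levels, in percent of reads methylated, of 3417 differentially methylated regions (DMRs), of which 2510 were single CpGs and 907 were longer. The DMRs had been selected by the study for differences between P2 and P10 within individual pups, these 6 included, so counts of changed DMRs describe a set chosen for change, and no direction was part of that selection. No DMR lacked a value in any of the 12 samples. Values of 0% (35) and 100% (23) were found in 48 DMRs of the 12 samples. Numbers of reads were not given with the levels, so the depth is unknown and single values carry no interval. Positions are those of rn6 as deposited. Gene names were taken from the study's own annotation, which covered 594 of the DMRs, 458 of them with a gene. Those DMRs had been singled out in the study on these samples among others, so they are not independent evidence of any direction.

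The question put to these pups was how the methylome of the cheek shifts over the first days of typical rearing. Averaged over all DMRs, the 6 pups had a level of 51.7% ± 1.57 on P2 and of 50.1% ± 0.985 on P10 (SD). The mean change, P10 minus P2, was −2.93 percentage points in C3, 1.29 in C4, −3.88 in C6, −0.413 in C7, −4.39 in C9 and 0.828 in C12. Thus 4 of the 6 pups were lower at P10, and the mean change of −1.58 ± 2.46 percentage points was smaller than its SD over pups. This mean was not shown to differ from 0 (exact sign-flip permutation test, two-sided, p = 0.219, where 6 pups allow no p below 0.0313). Movement at single DMRs was larger than its balance, but a mean of absolute changes cannot be below the size of the mean change. The DMRs had also been selected for change within pups. The mean absolute change per DMR was 10.4 percentage points in C3, 13.2 in C7, 14.8 in C9, 15.99 in C12, 17.8 in C6 and 20.4 in C4. In C4, 22.1% of DMRs dropped by 20 percentage points or more and 25.6% gained as much, while in C3 these shares were 9.07% and 3.57%.

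The pups did not move alike, and 2 of them stood apart. Of the 1555 DMRs at which 2 pups went against the other 4, the 2 were C6 and C9 at 989 (63.6%), and each of the other 14 pairs accounted for at most 117. Of the 708 DMRs at which 1 pup went against 5, the pup was C9 at 260, C6 at 159, C4 at 149, C3 at 83, C12 at 36 and C7 at 21. The counts over all DMRs and of the 3 plotted gene lists are therefore also given without C6 and C9, a choice made after these values were seen. Each P2 sample was also set beside the P10 samples by its deviations from the mean of its age. The P10 sample that correlated best with it was that of another pup in 6 of 6 pups. Examples are that of C4 for C6 (r = 0.629) and that of C6 for C4 (r = 0.583). The correlation with the pup's own P10 sample was 0.0144 in C3 and −0.669 to −0.155 in the other 5. The DMRs were selected for change within pups, these included, and deviations from an age mean cancel out over the pups. What part the selection and the centring had in these correlations was not tested. The values are therefore a description and do not decide on the pairing. The same direction in every pup was found at 267 DMRs lower at P10 (7.81% of 3417) and at 177 higher at P10 (5.18%). Among all 3417, the mean was lower at P10 at 1828 DMRs and higher at 1589, and it differed by 10 percentage points or more at 1142, of which 722 were lower and 420 higher. In the 4 pups without C6 and C9 the balance of means turned, with 1688 lower and 1729 higher, and 963 DMRs were lower (28.2%) and 892 higher (26.1%) in 4 of 4.

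DMR by DMR, P10 was tested against P2 within pup with limma on the log-odds scale, log2((percent + 1)/(100 − percent + 1)), with Benjamini-Hochberg adjustment over the 3417 DMRs at 0.05. Methylation fell at 17 DMRs (0.498%) and rose at 7 (0.205%), with adjusted p-values between 0.0308 and 0.0494. Without adjustment, 649 DMRs had p under 0.05, 430 lower and 219 higher at P10. All 7 DMRs that rose did so in 6 of 6 pups, and 16 of the 17 that fell did so in 6 of 6. At 19 of the 24 the range of the 6 P2 values did not overlap that of the 6 P10 values. Over all 3417 DMRs this held for 126 lower and 63 higher. The 24 were called on the same values, so these gaps are no separate support for the calls. The count rested on single pups: limma called 0 DMRs without C3, without C7 or without C12 (466, 359 and 380 at an unadjusted p under 0.05) and 3 without C9, but 45 without C4, 55 without C6, and 1311 (701 lower, 610 higher) without C6 and C9 together, among them all 24. As those 2 pups were left out for the way they moved, the last count describes the other 4 and supports no call. On untransformed percentage points no DMR passed (669 unadjusted).

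Of the genes listed under epithelial adhesion, keratin and barrier, 3 had a DMR that fell. Llgl1 encodes a cell polarity protein that marks out the basolateral membrane, and its DMR lay in an exon at chr10:46948753-46948759. Its level went from 82.95% to 55% in C3, 84.6% to 72.9% in C4, 89.1% to 38.5% in C6, 85.5% to 48.1% in C7, 90.5% to 38.5% in C9 and 75.8% to 40.5% in C12. All 6 pups started above 75%, and C4 ended highest by far, yet the ranges of both ages did not overlap. The mean went from 84.8% ± 5.23 at P2 to 48.9% ± 13.4 at P10 (SD, n = 6), a change of −35.9 ± 15.02 percentage points (limma, log2 odds change −2.51, SE 0.46, adjusted p = 0.0389). Lgals3 encodes galectin-3, a sugar-binding lectin of epithelia and macrophages, and its intronic DMR at chr15:24154167-24154168 went from 31.6% to 14.6% in C3, 29.8% to 13.1% in C4, 26.2% to 12% in C6, 37.8% to 5.03% in C7, 25.5% to 7.87% in C9 and 25.3% to 4.55% in C12. Every P10 value was at most 14.6% and every P2 value at least 25.3%, and the change of −19.8 ± 6.68 percentage points was among the most even of the 17 (adjusted p = 0.0431 by limma).

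Calml3 encodes a calmodulin-like calcium sensor of stratified epithelia, and its DMR was the 1 among the 24 that the study placed in a promoter, at chr17:70071395-70071396. Levels went from 95.7% to 65.6% in C3, 79.5% to 63.6% in C4, 83.3% to 34.7% in C6, 73.97% to 50.6% in C7, 77.9% to 34.2% in C9 and 73.6% to 62.1% in C12. C6 and C9 ended lowest, and the other 4 pups ended between 50.6% and 65.6%. The mean change was −28.8 ± 14.9 percentage points (limma, log2 odds change −2.07, SE 0.46, adjusted p = 0.0494). The promoter of this gene in RefSeq was taken as 250 bases before to 50 after the start on GRCr8 (chr17:71331276-71331575, plus strand). It is shown with CG in capitals, which are not known to include the CpG of the DMR:

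Calml3 promoter: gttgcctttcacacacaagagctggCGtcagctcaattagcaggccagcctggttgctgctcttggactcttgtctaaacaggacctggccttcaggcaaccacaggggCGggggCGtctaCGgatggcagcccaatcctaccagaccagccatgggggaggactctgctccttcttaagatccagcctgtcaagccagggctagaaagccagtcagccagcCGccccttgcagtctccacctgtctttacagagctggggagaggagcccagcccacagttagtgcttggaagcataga

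It holds 5 CG, against a median of 7 over 33469 RefSeq promoters of the same length, and no CCGG, the letters that MspI cuts and that 51.4% of those promoters hold. The position of the DMR is given on rn6 and was not placed in this window.

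Of the genes of white blood cell and inflammatory signalling, Tnfrsf1b and Traf1 had a DMR that fell. Tnfrsf1b encodes a receptor for tumor necrosis factor found mainly on immune cells, and its intronic DMR at chr5:163140329-163140330 went from 39.4% to 12.5% in C3, 33.3% to 16.5% in C4, 30.4% to 4.41% in C6, 34.7% to 10.4% in C7, 53.3% to 13.95% in C9 and 47.8% to 13.5% in C12. The P10 values lay in a narrow band from 4.41% to 16.5%, below every P2 value. The change was −27.96 ± 7.90 percentage points (limma, log2 odds change −2.28, SE 0.41, adjusted p = 0.0389). Traf1 encodes an adaptor that binds the same family of receptors, and its intergenic DMR at chr3:14024284-14024285 ranged over 37.98% to 56.7% (median 44.6%) at P2 and 11.9% to 24.8% (median 18.9%) at P10, again without overlap (−27.5 ± 10.01 percentage points, limma adjusted p = 0.0494).

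Of the glycan and metabolic enzymes, Prkab1 had a DMR that fell and Hs2st1 had 1 that rose. Prkab1 encodes a regulatory subunit of the energy sensor AMP-activated kinase. Its intergenic DMR at chr12:46314322-46314326 went from 54.9% ± 11.7 at P2 to 22.7% ± 6.49 at P10, with changes of −31.4 in C3, −18.1 in C4, −47.96 in C6, −34.7 in C7, −14.3 in C9 and −46.99 in C12 percentage points (limma adjusted p = 0.0426). Ppard, which is in none of the gene lists, encodes a nuclear receptor that controls fatty acid use. Its intronic DMR at chr20:7819196-7819197 had the smallest adjusted p of the series of tests (0.0308), with 18.6% to 28.6% (median 23.03%) at P2 and 2.04% to 5.17% (median 4.08%) at P10. It was thus nearly unmethylated on P10 in every pup. Hs2st1 encodes a sulfotransferase that modifies heparan sulfate, and its intronic DMR at chr2:250507231-250507232 went from 58.8% to 93.02% in C3, 46.2% to 91.3% in C4, 65% to 72.4% in C6, 51.4% to 89.8% in C7, 80% to 88.9% in C9 and 51.4% to 97.1% in C12. The rise was steep in C3, C4, C7 and C12 and under 10 percentage points in C6 and C9, and the P2 value of C9 lay above the P10 value of C6 (limma, log2 odds change 2.58, SE 0.52, adjusted p = 0.0426).

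Of the growth factors and developmental transcription factors, 1 DMR each of Gdnf and Six2 rose. Gdnf encodes a neurotrophic factor that also guides branching epithelia, and its exonic DMR at chr2:56892567-56892568 went from 22.2% to 27.9% in C3, 6.25% to 40.3% in C4, 5.88% to 31.9% in C6, 8.33% to 31.2% in C7, 14.3% to 54.2% in C9 and 7.69% to 40.98% in C12. All pups but C3 gained more than 20 percentage points (limma, log2 odds change 2.36, SE 0.45, adjusted p = 0.0426). A second Gdnf DMR in an intron, chr2:56892122-56892123, was higher on P10 in all pups but C12, with a mean change of 16.5 ± 19.5 percentage points, and did not pass (adjusted p = 0.230). Six2 encodes a homeobox factor of kidney and craniofacial progenitors. Its exonic DMR at chr6:8953114-8953115 was almost free of methylation at P2, with 0.763% in C3, 0% in C4, 1.53% in C6, 0.962% in C7, 0.581% in C9 and 0.862% in C12. At P10 it held 5.88% in C3, 5.41% in C4, 3.01% in C6, 9.24% in C7, 5.38% in C9 and 11.01% in C12 (limma, log2 odds change 2.15, SE 0.43, adjusted p = 0.0426). The gain was small in percentage points and no P10 value reached down to the P2 range.

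The plot of levels by pup shows these 9 DMRs side by side.

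**Figure D1:**
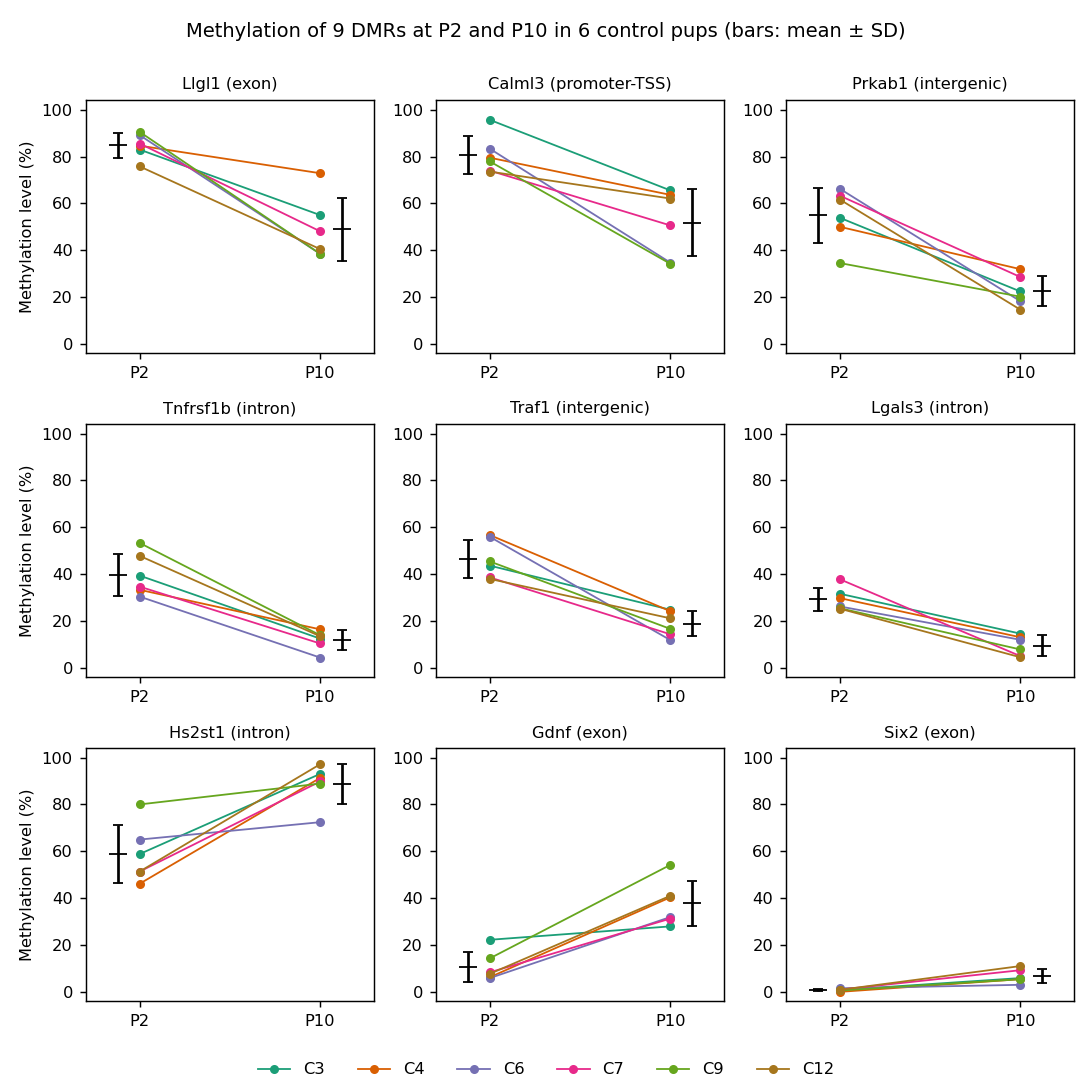
Methylation level in percent (vertical axis) at P2 and P10 of the DMRs of Llgl1, Calml3, Prkab1, Tnfrsf1b, Traf1, Lgals3, Hs2st1, Gdnf and Six2, with 1 line per control pup and bars at the sides for mean ± SD (n = 6). All lines slope down in the first 6 panels and up in the last 3, while the steepness differs between pups, for example in Hs2st1, where C6 and C9 gained 7.41 and 8.89 percentage points and C12 gained 45.8.

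The remaining called DMRs carried no gene name in the study's annotation or a gene outside the lists. Falls of 30.5 to 35.7 percentage points were found at chr4:122482785-122482786, chr16:59906194-59906230, chr8:7192555-7192556, chr10:57388840-57388841, chr12:13368480-13368481 and chr13:73740420-73740421. Of these, chr12:13368480-13368481 was the most even, with changes of −30.7 in C3, −40.4 in C4, −25.8 in C6, −40.01 in C7, −19.4 in C9 and −40.8 in C12 percentage points. The least even was chr4:122482785-122482786, which went from 54.5% to 43.9% in C3 and from 93.5% to 32% in C9. A further fall of 25.6 ± 14.3 percentage points was found at chr11:82916644-82916645, where C6 moved least, by −2.17 percentage points, and C4 most, by −42.6. Falls at chr4:133389907-133389923 and chr3:164568897-164568898 were 25 ± 11.1 percentage points and 12.6 ± 7.08 percentage points. Mical3, which encodes an enzyme that acts on actin, had the only called DMR that did not move the same way in all pups, at chr4:153611188-153611189. It dropped in 5 pups, to as low as 40.5% in C9, and went from 82.9% to 88.2% in C4. Rises without a gene name were 28.8 ± 12.9 percentage points at chr9:91958505-91958506 and 22.6 ± 7.87 percentage points at chr12:2589423-2589424. At the latter all 6 pups ended between 85.7% and 95.8%. DMRs assigned to the uncharacterized genes AC096072.1 (chr4:81777954-81777955) and AABR07044492.1 (chr20:8137532-8137544) also rose, the first to between 90.9% and 100% and the second from 4.28% ± 2.86 to 17.4% ± 9.60.

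Some DMRs with large mean changes did not pass the threshold. The widest such changes were at chr4:65839328-65839359 (−31.9 ± 15.5 percentage points, adjusted p = 0.0544), at chr16:20109267-20109268 (−31.9 ± 17.8 percentage points, adjusted p = 0.0544) and in an intron of Slc7a1, a transporter of cationic amino acids, at chr12:8062325-8062326 (−30.5 ± 18.2 percentage points, adjusted p = 0.0694). All 3 were lower at P10 in 6 of 6 pups.

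The 24 DMRs were then read in pups that had no part in the test that called them, although the study had drawn the 3417 DMRs from these pups as well. In the 4 controls of cohort 2, the mean moved the same way at 24 of 24, while over all 3417 DMRs the share was 75.7%. In those pups, tested alone by limma, methylation fell at 578 DMRs (16.9%) and rose at 83 (2.43%), and these included 16 of the 17 that fell and 4 of the 7 that rose in cohort 1 controls. In the 5 LBN pups of cohort 1, 22 of 24 moved the same way, where the share of all DMRs was 76.4%. There methylation fell at 315 DMRs (9.22%) and rose at 248 (7.26%), among them 8 of the 17 and 2 of the 7. Of the DMRs lower in 6 of 6 cohort 1 controls, 91.8% moved the same way in cohort 2 controls and 90.6% in LBN pups. For those higher in 6 of 6, the shares were 90.4% and 92.1%. Among the 24, Calml3 was 1 of the 2 exceptions in LBN pups, with a change there of 2.76 ± 10.8 percentage points. It changed by −30.6 ± 20.96 in cohort 2 controls and by −28.8 ± 14.9 percentage points in cohort 1 controls (SD). The other was chr9:91958505-91958506, with −1.53 ± 15.5, 21.3 ± 20.8 and 28.8 ± 12.9 percentage points. Llgl1 changed by −2.93 ± 13.2 in LBN pups and by −56.8 ± 9.79 in cohort 2 controls, while Lgals3 moved by −20.5 ± 6.88 and −25.1 ± 4.74, close to its values in cohort 1 controls. Six2 rose in cohort 1 controls and changed by 0.164 ± 5.37 in cohort 2 controls, where 2 of 4 pups were lower at P10.

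The difference in change itself passed at no DMR. With limma on the within-pup changes, cohort 1 controls against cohort 2 controls gave 0 DMRs past the adjusted p (0%) and 311 at an unadjusted p under 0.05, and against cohort 1 LBN pups 0 (0%) and 181. The smallest adjusted p was 0.230 in the first test and 0.795 in the second. For Calml3 the difference from LBN pups had an unadjusted p of 0.00307 and for Llgl1 of 0.00117 (limma, adjusted p = 0.795 for both), so neither was shown to differ. Over all DMRs, the mean change of a pup was −5.88 ± 2.23 percentage points in the 4 cohort 2 controls, lower in 4 of 4, and 1.03 ± 1.73 in the 5 LBN pups, lower in 1 of 5. Cohort 1 controls were 4.30 percentage points above the former (exact permutation test, two-sided, p = 0.0286, Benjamini-Hochberg adjusted over 4 comparisons 0.114) and 2.61 below the latter (difference −2.61, exact permutation p = 0.0909, adjusted 0.182), so neither passed after adjustment. The smallest p these designs allow is 0.00952 and 0.00433. The mean absolute change was 15.4 ± 3.52 percentage points in cohort 1 controls, 16.9 ± 2.42 in cohort 2 controls (exact permutation p = 0.467, adjusted 0.622) and 14.5 ± 4.85 in LBN pups (p = 0.706 before and after adjustment). Cohort and whatever else set both sets of control pups apart cannot be told apart.

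**Figure D2:**
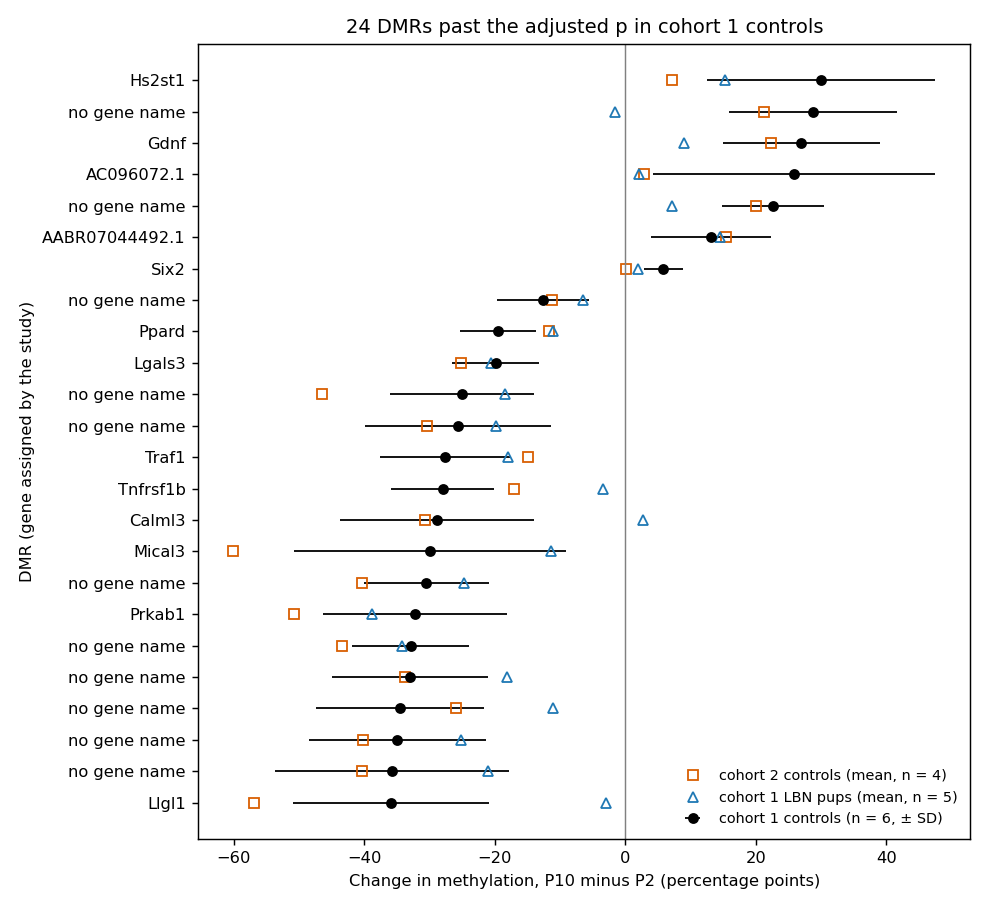
Mean change, P10 minus P2, in percentage points (horizontal axis) of the 24 called DMRs in cohort 1 controls (black, ± SD, n = 6), cohort 2 controls (squares, n = 4) and cohort 1 LBN pups (triangles, n = 5). Squares lie on the same side of 0 as the black points for all 24, triangles for 22, with Calml3 at 2.76 and a DMR without a gene name at −1.53 as the exceptions.

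The disagreement between pups was laid out by principal component analysis of the 12 samples over the 3417 DMRs, on centred percentages. The second component, with 21.7% of the variance, set the ages apart in every pup: scores lay between −489 and −168 on P2 and between 20.9 and 449 on P10. The first component, with 46.3%, did not. Along it C3, C4, C7 and C12 went down from P2 to P10, from 124 to −231, 609 to −719, 382 to −330 and 567 to −352, and C6 and C9 went up, from −359 to 393 and from −395 to 311. At P2 the 2 sets of pups lay on opposite sides of 0 and at P10 they had exchanged sides. On log-odds the components held 41.7% and 22.7%, with the same directions in each pup.

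**Figure D3:**
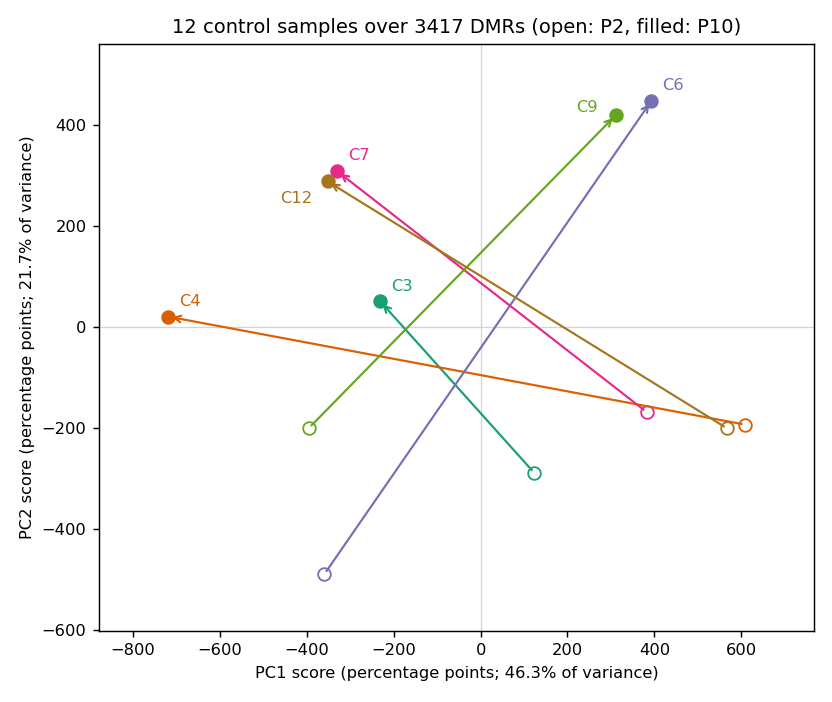
Scores of the 12 samples on the first component (horizontal, 46.3% of variance) and second component (vertical, 21.7%), in percentage points summed over DMRs, with open circles for P2, filled circles for P10 and an arrow for each pup. All 6 arrows point up, 4 of them to the left (C3, C4, C7, C12) and 2 to the right (C6, C9).

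The 100 DMRs of most positive weight on the first component had mean changes of −12.8 percentage points in C3, −41.1 in C4, −23.8 in C7 and −32.4 in C12, but 10.9 in C6 and 16.04 in C9. Those of most negative weight had 11.9, 45.1, 23.6 and 27.5 in the first 4 pups and −32.2 and −25.1 in C6 and C9. None of the DMRs of either set was among the 24, which are 17 (0.498%) lower and 7 (0.205%) higher of all 3417. The sets were picked where these same pups moved in opposite directions, so this absence is not a separate result. Read in other pups, the first set was lower at P10 in 4 of 4 cohort 2 controls, with a mean of −25.1 and a range of −35.03 to −12.4, and in 5 of 5 LBN pups of cohort 1, with a mean of −17.8 and a range of −35.8 to −1.18. The second set ranged from −13.7 to 19.96 in cohort 2 controls, 3 of 4 lower, and from −10.02 to 30.3 in LBN pups, 1 of 5 lower. These weights were derived from the same 12 samples, so the values in those samples are a description.

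The study assigned a gene to 18 DMRs of the first set and to 17 of the second, and the genes given here are a choice from them. Those of the first set included Runx1, a master factor of blood cell formation, Cxcr4, a chemokine receptor that retains leukocytes in tissue, Jaml, an adhesion molecule of leukocytes, and Dapp1, an adaptor of B cell signalling, beside genes of other roles such as Sgk1, Noct, Selenon, Casz1 and Chrna9. These were named after their values were seen. In the whole list of leukocyte genes, C6 and C9 were higher and the other 4 pups lower at 5 of 33 DMRs and the reverse held at 4. At the intronic DMR of Runx1 (chr11:32881223-32881224) the level went from 57.1% to 52.9% in C3, 80.9% to 22.9% in C4, 44.3% to 64.6% in C6, 70% to 30.8% in C7, 45.2% to 42.4% in C9 and 76.5% to 43.3% in C12. The P10 level was far below that of P2 in C4, C7 and C12, close to it in C3 and C9, and above it in C6. The intergenic DMR of Cxcr4 (chr13:45313708-45313709) had changes of −32.3 in C3, −41.3 in C4, 2.94 in C6, −38.6 in C7, 4.93 in C9 and −41.4 in C12 percentage points, and the intronic DMR of Jaml (chr8:49386309-49386310) had −14.8 in C3, −59.7 in C4, 21.1 in C6, −11.4 in C7, 25.3 in C9 and −18.3 in C12. C6 and C9 were higher at P10 at both and the other 4 pups lower. The second set included Krt42, a keratin, Kdm2b, a histone demethylase that binds CpG islands, and Smarce1, a subunit of the BAF remodelling complex. At the intergenic DMR of Krt42 (chr10:88181423-88181424) the changes were 3.74 in C3, 41.99 in C4, −39.9 in C6, 19.9 in C7, −34.9 in C9 and 15.6 in C12, and at the exonic DMR of Smarce1 (chr10:87132639-87132640), which the rule for named genes selected, they were 29.96 in C3, 51.6 in C4, −33.5 in C6, 43.9 in C7, −26.4 in C9 and 35.03 in C12. Means over pups hid such movement: 1.08 ± 32.3 percentage points for Krt42 and 16.8 ± 37.02 percentage points for Smarce1. What part a differing mixture of epithelial and white blood cells had in these values was not tested.

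The 3 DMRs with the largest SD of change over pups had the same pattern. They were chr15:33019970-33019971 (12.2 ± 40.8 percentage points), chr2:31838008-31838009 (4.70 ± 40.3 percentage points) and an intron of Fam189a1 at chr1:125675874-125675875 (1.85 ± 38.5 percentage points). At the first, C4 went from 35.7% to 87.1% and C6 from 94.7% to 50%. The median SD of change over the 3417 DMRs was 15.9 percentage points.

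Changes were also correlated between pups, across DMRs, which are not independent replicates. Over the 15 pairs of pups, Pearson's r of the changes in percentage points ran from −0.470 (C4 with C9) to 0.779 (C7 with C12), with a median of −0.0234 and 8 negative values. C6 and C9 correlated with each other at 0.686 and with the other 4 pups at −0.470 to −0.0234. On log-odds the range was −0.384 to 0.749, with a median of 0.0206 and 7 negative values. In cohort 2 controls the 6 pairs ran from 0.0983 to 0.642 (median 0.530) in percentage points, and in the LBN pups of cohort 1 the median over 10 pairs was 0.541, with 2 negative. The points share the DMRs, and the pups of a set share a cohort, so these values are given as a description.

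**Figure D4:**
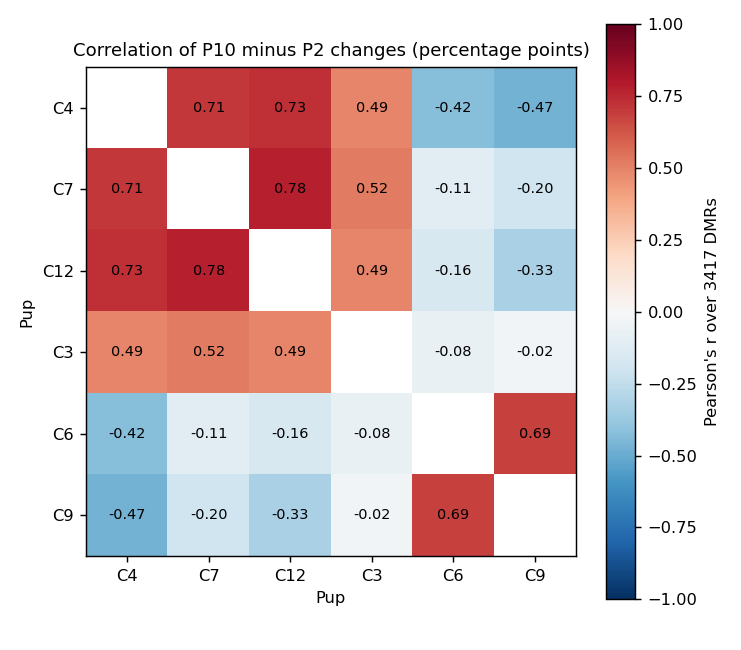
Pearson's r of the change P10 minus P2, in percentage points, over 3417 DMRs for each pair of the 6 control pups, coloured from −1 (blue) to 1 (red). C4, C7, C12 and C3 form a block of positive values and C6 with C9 another, with values below 0 between the blocks, from −0.0234 for C3 with C9 down to −0.470 for C4 with C9.

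DMRs of genes were then grouped into lists by function, beside the values over all DMRs: 17 fell and 7 rose, 267 were lower and 177 higher in 6 of 6 pups, and the median of the mean changes was −0.800 percentage points. Over the 458 DMRs with a gene name these were 8, 5, 59, 50 and −1.42. The list of developmental transcription factors held 49 DMRs of 36 genes, mostly of low level at P2 (median 16.3%). Of these 0 fell and 1 rose, 0 were lower and 12 higher in 6 of 6 pups, and 38 had a higher mean at P10, with a median change of 5.87 percentage points. Without C6 and C9 the median was 3.49, with 7 lower and 13 higher in 4 of 4. DMRs of low level leaned the same way: of the 386 under 25% at P2 in the LBN pups of cohort 1, 53 were higher and 25 lower in 6 of 6 control pups, and the part of the starting level in the values of the list was not tested. The 12 were 2 DMRs each of Six2 and Tbx3 and 1 each of Hes7, Etv5, Dlx1, Tfap2c, Snai1, Hoxd4, Hoxb5 and Gata3.

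Etv5, an ETS-family factor downstream of fibroblast growth factors, had an intergenic DMR at chr11:82193246-82193247 with 29.8% to 42.6% (median 35.2%) at P2 and 42% to 60.6% (median 53.5%) at P10, and its change of 16.8 ± 7.04 percentage points did not pass (adjusted p = 0.208). Hes7, an oscillating repressor of the somite clock, had a DMR in its promoter at chr10:55707076-55707077 with changes of 18.2 in C3, 7.83 in C4, 42.7 in C6, 6.35 in C7, 8.19 in C9 and 18.3 in C12 percentage points (adjusted p = 0.225). Exonic DMRs of Dlx1, a homeobox factor of forebrain and jaw (chr3:58167965-58167966), and of Tbx3, a T-box factor of limb and gland buds (chr12:42483627-42483628), had changes of 14.4 ± 8.98 percentage points and 14.4 ± 10.4 percentage points (adjusted p = 0.0894 and 0.0934 by limma). By pup, the median change of the list was 2.85 percentage points in C3, 2.40 in C4, 11.7 in C6, 3.74 in C7, 10.6 in C9 and 3.07 in C12. C9 was higher at P10 at 46 of the 49 and C6 at 37, the other pups at 28 to 31. In cohort 2 controls the median over the list was 2.94 and in cohort 1 LBN pups −0.445.

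The list of epithelial adhesion, keratin and barrier genes held 21 DMRs, of which 3 fell and 0 rose, 7 were lower and 0 higher in 6 of 6 pups, and the median of the mean changes was −10.6 percentage points. Without C6 and C9 it was −6.00, with 9 lower and 3 higher in 4 of 4. The 7 were Llgl1, Calml3 and Lgals3, described above, with Tmprss9, Pxn, Aqp3 and Celsr1. Tmprss9, a membrane-bound serine protease, had an intergenic DMR at chr7:11701749-11701750 that went from 67.8% ± 10.1 at P2 to 37.5% ± 7.83 at P10 with an adjusted p of 0.0544. Pxn, which encodes the focal adhesion protein paxillin, had an exonic DMR at chr12:46808475-46808486 with changes of −16.2 in C3, −21.9 in C4, −43.8 in C6, −27.7 in C7, −19.5 in C9 and −31.7 in C12 (adjusted p = 0.0742). The median by pup was −11.04 in C3, 0.373 in C4, −22.3 in C6, −8.72 in C7, −19.5 in C9 and −9.63 in C12, so C6 and C9 were again at 1 end and C4 at the other. In cohort 2 controls the median was −13.9 and in LBN pups −0.826. Krt42, Dsc3, a desmosomal cadherin, and Itga6, an integrin of hemidesmosomes, named after their values were seen, did not move with the 7. Dsc3 (chr18:11788807-11788827) had changes of −23.3 in C3, 22.98 in C4, −44.6 in C6, 2.20 in C7, −32.1 in C9 and 13.2 in C12 and Itga6 (chr3:58461215-58461230) of 4.80 in C3, 8.05 in C4, −17.98 in C6, 1.88 in C7, −33.5 in C9 and 12.1 in C12.

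The list of leukocyte and inflammatory signalling genes held 33 DMRs of 30 genes, of which 2 fell and 0 rose, 5 were lower and 5 higher in 6 of 6 pups, with a median of the mean changes of −6.61. The median by pup was −5.20 in C3, 1.23 in C4, 2.33 in C6, −3.55 in C7, −0.183 in C9 and −0.854 in C12, so no single pup was as low as the median of the means and 2 were above 0. Without C6 and C9 the median of the means was −6.42, with 13 lower and 9 higher in 4 of 4. Beside Tnfrsf1b and Traf1, the DMRs of Card10, Map3k8 and Cxcr1 were lower in every pup. Card10, a scaffold that links receptors to NF-κB, had an exonic DMR at chr7:120011332-120011333 with changes of −6.28 in C3, −32.8 in C4, −14.7 in C6, −45.7 in C7, −24.2 in C9 and −51.7 in C12 (adjusted p = 0.0742). Higher in every pup were 2 DMRs of Bcl3, a nuclear partner of NF-κB, and 1 each of Tnfaip2, Alpk1 and Irf8. The intronic DMR of Bcl3 at chr1:80731734-80731753 went from 37.6% to 58.4% in C3, 21.5% to 53.5% in C4, 35.6% to 63.7% in C6, 32.1% to 61.3% in C7, 33.8% to 62.4% in C9 and 29.5% to 56.6% in C12. The 6 pups gained 20.8 to 32 percentage points, the P2 and P10 ranges lay far apart, and the adjusted p was 0.0551, just above the threshold of 0.05. It gained 33.6 ± 13.2 percentage points in cohort 2 controls and 29.5 ± 7.38 in LBN pups (SD), where limma called it with adjusted p-values of 0.0181 and 0.0222. Irf8, a factor of myeloid cells, had the least spread of the list, named after its values were seen, with exonic changes at chr19:54332230-54332231 of 6.46 in C3, 6.28 in C4, 4.42 in C6, 6.21 in C7, 7.14 in C9 and 6.59 in C12. At 9 of the 33 (27.3%), C6 and C9 went against the other 4 pups, 5 with C6 and C9 higher and 4 with both lower. Over all DMRs the share was 28.9%, with both higher at 429 and lower at 560. In the epithelial list it held at 3 of 21, and in the developmental list at 6 of 49, all with C6 and C9 higher.

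**Figure D5:**
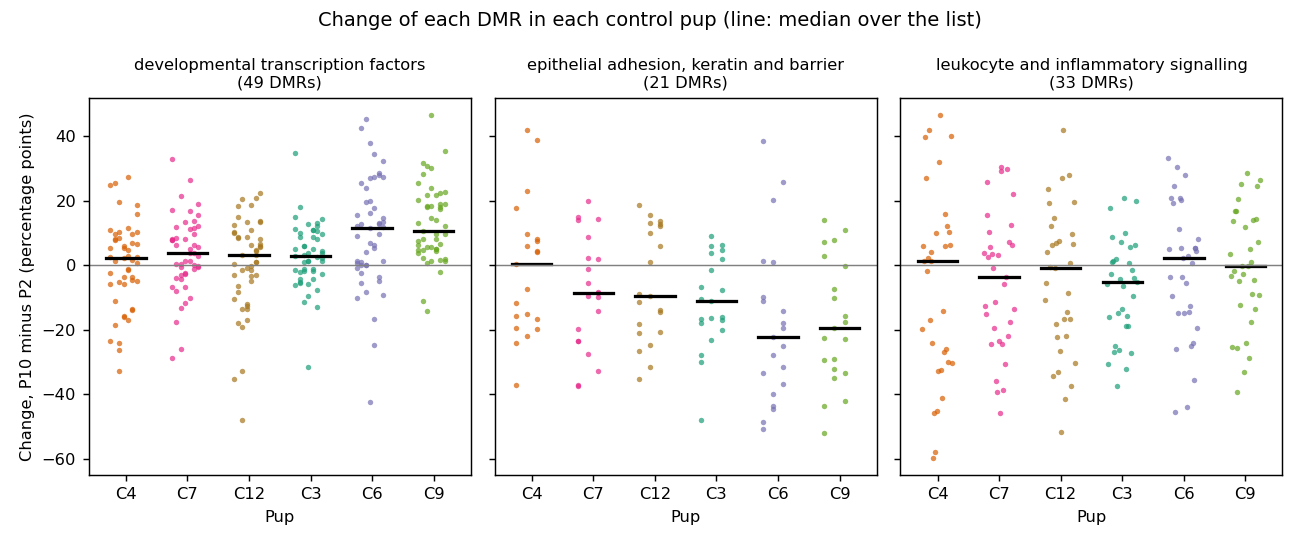
Change, P10 minus P2, in percentage points (vertical axis) of each DMR of 3 gene lists in each control pup, with a black line at the list's median. In the developmental list the medians of C6 and C9 (11.7 and 10.6) lie above those of the other pups, and in the epithelial list they lie lowest (−22.3 and −19.5), while the leukocyte list is spread on both sides of 0 in every pup.

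Growth factor, Wnt and guidance genes gave 32 DMRs, of which 0 fell and 1, that of Gdnf, rose, with 2 lower and 5 higher in 6 of 6 pups and a median of 2.10. Bmp8b, a bone morphogenetic protein, was higher at P10 in 5 of 6 pups (chr5:140797172-140797173, 16.2 ± 14.6 percentage points, adjusted p = 0.226), and Skil, a repressor of TGF-β signalling, was lower in 5 of 6 (chr2:115880051-115880052, −16.8 ± 19.4 percentage points, adjusted p = 0.234). Glycan and metabolic enzymes gave 19 DMRs, of which Prkab1 fell and Hs2st1 rose, with 6 lower and 1 higher in 6 of 6 pups and a median of −6.72. Pecr, a peroxisomal enzyme of fatty acid elongation (chr9:79600940-79600941, −27.99 ± 7.06 percentage points), had an adjusted p of 0.0508, and Sulf2, a sulfatase that trims heparan sulfate outside the cell (chr3:162887757-162887758, −24.8 ± 7.41 percentage points), of 0.0734. Both were lower in 6 of 6 pups.

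The enzymes that write and erase the mark were among the 8 DMRs of DNA methylation and chromatin regulators, where 0 fell, 0 rose, 0 were lower and 2 higher in 6 of 6 pups, and the median was 3.57. Dnmt3a, which methylates DNA anew, had an intronic DMR at chr6:28324002-28324027 that went from 12.96% to 13.7% in C3, 8.75% to 21.01% in C4, 7.05% to 29.5% in C6, 11.6% to 18.2% in C7, 6.71% to 35.6% in C9 and 8.81% to 16.9% in C12. It was higher in 6 of 6 pups, most in C6 and C9 (adjusted p = 0.134). Bahcc1, a chromatin reader, was higher by 12.5 ± 5.37 percentage points at chr10:109476943-109476944 (adjusted p = 0.334). Tet3, which oxidizes methylated cytosine, had changes of 4.89 in C3, −0.221 in C4, −32.3 in C6, −5.18 in C7, −27.2 in C9 and 3.10 in C12 at chr4:115158745-115158750, far below 0 in C6 and C9 alone. Channels and neural receptors gave 17 DMRs, with 0 that fell or rose, 2 lower and 1 higher in 6 of 6 pups, and a median of −0.716. Kcnk5, a background potassium channel, was lower in 6 of 6 (chr15:4595203-4595204, −22.2 ± 16.2 percentage points, adjusted p = 0.0743). Chrna9, a nicotinic receptor subunit (chr14:43879199-43879200), Gpr39, a zinc-sensing receptor with a promoter DMR (chr13:42008457-42008458), and Kcnn4, a calcium-activated potassium channel of leukocytes and epithelia (chr1:81237934-81237935), had mean changes of −21.3 ± 20.1, −18.3 ± 22.97 and 17.2 ± 16.5 percentage points, none past the adjusted p (0.137, 0.242 and 0.131).

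DMRs over a low level at P2 had a positive median change. When DMRs were split by their P2 level in the LBN pups of cohort 1, so that no value of these 6 pups was used, the median change in cohort 1 controls was 2.82 percentage points below 25% (386 DMRs), −0.770 from 25% to 50% (1109), −1.52 from 50% to 75% (1514) and −2.59 at 75% or more (408). DMRs called lower numbered 2, 4, 7 and 4 in these classes and DMRs called higher 3, 0, 2 and 2. Longer DMRs had a median of −1.67 (907 DMRs, 4 lower and 1 higher called) and single CpGs of −0.461 (2510, 13 and 6 called). Neighbouring DMRs on a chromosome shared the direction of their mean change at 79.1% of 110 pairs less than 1 kb apart, at 57.5% of 181 pairs 1 to 10 kb apart, at 55.8% of 864 pairs 10 to 100 kb apart and at 50.6% of 2239 pairs 100 kb or more apart. The mean changes of neighbours correlated at 0.669 under 1 kb and at −0.00916 at 100 kb or more, across DMRs, as a description.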

How the data were processed

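RRBS libraries of buccal swab DNA were made from 38 samples, of which the 12 of cohort 1 controls were used here, with 8 of cohort 2 controls and 10 of cohort 1 LBN pups for comparison. The authors trimmed reads with Trim Galore 0.4.3, aligned them to rn6 with Bismark 0.16.3, set a coverage limit of more than 10 reads per CpG, compared both ages of each pup CpG by CpG (false discovery rate 0.05), took what at least 2 pups of a group shared, joined CpGs up to 100 base pairs apart into DMRs, and deposited the methylation percentage of each DMR in each sample, not corrected for cohort. Tool versions come from the submitters' processing notes. Read counts were not given, so no coverage minimum or interval could be applied. The authors' gene annotation was used for names only, and all columns of levels matched a sample.

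Here, P10 minus P2 was taken within each pup, the pairing that the labels give by naming the pup. Deviations of a pup's P2 and P10 samples from the age means correlated across DMRs at 0.0144 in C3 and at −0.669 to −0.155 in the other 5 pups. Each P2 sample correlated best with the P10 sample of another pup. What part the selection of DMRs for change within pups and the centring on age means had in this was not tested. The pairing rests on the labels alone. Each DMR was tested by moderated linear models (limma 3.58.1, R 4.3.3, two-sided) on log2((percent + 1)/(100 − percent + 1)), with the pup as a block and Benjamini-Hochberg adjustment over all DMRs at 0.05. Changes of pup sets were compared by limma on the within-pup differences and by exact permutation tests of the pup means. The limma tests treat pups as independent. Python 3.11.15 with numpy 2.4.6, pandas 2.3.3, scipy 1.17.1 and matplotlib 3.10.9 was used. The limma code was tested on simulated data. The pups and the gene lists were chosen with earlier results of these data known. Named DMRs were up to 12 lower and 12 higher past the adjusted p with 1 direction in 6 of 6 pups, up to 4 of each list by size of change, the 3 of largest SD and the 3 of largest change that did not pass. The others past the adjusted p were added in the text, and DMRs named for another reason are said to be. Alternatives were other scales, filters, variance models and sample sets, and each pup left out in turn. Promoter sequences are from RefSeq on GRCr8, and of 28 promoter DMRs the genes of 15 had 1 entry there. No expression was measured, so the cell makeup of a swab was not checked against markers.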

Additional observations from a re-analysis of the deposited data

Results flagged for a closer look

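Among 141 sets of 6 values, mainly levels at P2, levels at P10 and changes of the named DMRs, 9 held a pup far from the other 5. In these the gap to the nearest pup was above the 95% critical value of Dixon's ratio, and by chance about 1 in 20 sets would pass it. At the promoter DMR of Hes7, C6 stood apart with a P10 level of 68.2% (the next pup had 51.6%) and a change of 42.7 percentage points. At Slc7a1, the change of −65 percentage points in C6 was far below the next, −32.6. At the exonic DMR of Tbx3, C7 had 40.5% at P10 and the next pup 25%. At Pxn, C3 had 45.5% at P10 and the next pup 31.9%. At chr16:20109267-20109268, C9 ended at 51.3%, and the other 5 pups at 31.6% or less. At Hs2st1, C6 ended at 72.4%, below the 88.9% of the next. At AC096072.1, C4 began at 35.7%, and the next lowest P2 level was 69.5%. At chr9:91958505-91958506, C4 ended at 71.1%, below the next at 90%.

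The mean change over all DMRs was 4.30 percentage points above that of cohort 2 controls, which did not pass after adjustment (exact permutation test, p = 0.0286, adjusted 0.114 over 4 comparisons). It was −1.58 in cohort 1 controls, lower in 4 of 6 pups, and −5.88 in cohort 2 controls, lower in 4 of 4.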

How the results depend on the processing

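The count of 24 changed DMRs depended on the scale, the pups and the samples in the fit. It was 0 on percentage points (669 at an unadjusted p under 0.05 by limma), 381 with no replicate block, so that P2 and P10 were compared as unpaired groups, 144 when all 22 samples of cohort 1 were fitted together, 318 with all 38 samples, and 1311 without C6 and C9, the last chosen after seeing how these pups moved, so that it supports no call. With 1 pup left out it ranged from 0 (without C3, C7 or C12) to 55 (without C6). It lay between 18 and 32 on log2(P10/P2) with 1 percentage point added, with 0.5 in place of 1 added to the log-odds, on DMRs with a mean level of 10 to 90%, without DMRs at 0 or 100%, on single CpGs, without chromosome X, and with the trend or robust variance model. None of the 24 reversed under any of these. The mean change of −1.58 percentage points kept its sign and had an exact sign-flip p of at least 0.1875 under every setting, log2 ratio and log-odds included, at −0.304 without C6 and C9 (exact sign-flip p = 0.875), and from −2.15 to −1.02 with 1 pup left out. The difference of 4.30 from cohort 2 controls ranged from 3.29 to 4.86 with 1 pup left out, and its unadjusted exact permutation p was 0.0714 without C8 or without C11 of cohort 2 and at most 0.0476 without any other pup. The difference of −2.61 from LBN pups ranged from −3.24 to −2.05. DMR by DMR, neither difference gave a call by limma under any scale, robust variance, the fit of all 19 pups or with any pup left out, with 191 to 424 DMRs at an unadjusted p under 0.05 for cohort 2 controls and 105 to 421 for LBN pups. The cause of these shifts was not tested. Depth is not known, so noise of single percentages cannot be separated from differences between pups, and 6 pups limit each test.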

Other observations

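The 100 DMRs of most positive weight on the second component, which set P10 above P2, were higher at P10 in every control pup of cohort 1, by 9.14 percentage points in C3, 12.5 in C4, 29.5 in C6, 17.1 in C7, 14.8 in C9 and 20.4 in C12. They took in 5 of the 24 called DMRs. Genes were assigned to 33 of the 100, and Gdnf, Bcl3, Hes7, Etv5, Wnt3 and Dlx1 are a choice made after values were seen. In pups not used for the weights, the 100 DMRs averaged 10.9 in cohort 2 controls, higher in 3 of 4. In cohort 1 LBN pups they averaged 9.48, higher in 5 of 5. The 100 of most negative weight took in 13 of the 24, with Llgl1, Calml3, Prkab1, Traf1 and Tnfrsf1b, and were lower by −12.5 percentage points in C4 to −33.2 in C6. They averaged −26.8 in cohort 2 controls, lower in 4 of 4, and −9.97 in LBN pups, lower in 5 of 5. Over all 3417 DMRs, 17 (0.498%) fell and 7 (0.205%) rose. Weights and calls came from the same 12 samples, so the changes in those pups and the overlaps with the 24 are a description.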
